A study of Mus musculus with 6 samples.

Results

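Wnt ligands, their receptors, their secreted inhibitors and the TCF/LEF factors that act at the end of the pathway were examined in whole lungs of mice with EGFR-driven lung cancer that ate a high-fat (LC-HFD) or regular diet (LC-RD). The members were chosen by gene symbol. Each gene was read as a log2 value on its brightest probe set, the one with the highest mean over the 6 arrays. In all, 50 of the 18193 genes with a probe set of their own fit the rule, covering 19 Wnt ligands, 10 Frizzled receptors, 2 LRP co-receptors, 3 R-spondin receptors, 2 membrane ubiquitin ligases, 9 secreted inhibitors, 2 Axin scaffolds and 3 TCF/LEF factors. They hold 98 probe sets, and 32 members have more than 1.

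All mice carried CC10-rtTA and tet-O-EGFR-L858R, in which doxycycline (Dox) turns on a mutant human EGFR in cells that use the CC10 promoter, a promoter of the airway epithelium. The labels name the groups HFD+Dox and RD+Dox. Each group had 3 arrays, 1 for the lung of each mouse. Mice of the LC-HFD group received a high-fat diet with 60% of energy from fat, and mice of the LC-RD group a regular diet. Both groups were given Dox at 625 ppm in the diet, and the labels also give 2 mg/ml in drinking water with 1% sucrose. The mice were males backcrossed to C57BL/6. They were 6 to 8 weeks old at the start, and ate their diet for 2 weeks and then the same diet with Dox for 8 weeks. The sample labels give another schedule, with diet until 8 weeks and Dox for 7 weeks, in a text that is the same for both groups and names HFD. No group without the mutant EGFR was on these arrays, so the values compare diets among mice that all carry the induced transgene.

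Wnt proteins are secreted, lipid-modified signals. In the canonical branch a Wnt binds a Frizzled receptor together with LRP5 or LRP6, which recruits Axin to the membrane and spares β-catenin from destruction, so that β-catenin can join TCF/LEF factors on DNA. Secreted inhibitors of the SFRP, DKK and WIF families block the ligand or the co-receptor, and the ubiquitin ligases RNF43 and ZNRF3 remove Frizzled from the cell surface unless R-spondins and LGR receptors hold them back. In the lung, Wnt signals from mesenchymal cells take part in lung development and in the upkeep of alveolar type II cells.

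The 6 arrays had median log2 values between 4.78 and 4.83, with a median SD between mice of 0.137 (LC-HFD) and 0.0944 (LC-RD). Across probe sets, Pearson's correlation was 0.993 to 0.998 between arrays of a group and 0.983 to 0.988 across the groups. Defining markers of lung were high on every array, with Sftpc, the surfactant gene of alveolar type II cells, at 13.81 in both groups. Control probe sets also separated the arrays by group. The added hybridization controls were higher on the LC-HFD arrays by 1.48 log2 units and 18S rRNA was lower by −4.92, each without overlap (exact permutation p = 0.100, two-sided, the smallest that 3 against 3 arrays allow). Diet and array handling therefore cannot be told apart in any difference given here.

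Both LRP co-receptors rose in LC-HFD lungs, while the ligand Wnt2, the receptor Fzd4 and the inhibitors Sfrp2 and Wif1 fell. The ubiquitin ligase gene Znrf3 fell on its brightest probe set and rose on its other, with a mean of both at 0.02. Axin1 and Tcf7l1 rose by less. Together 9 of the 50 members passed limma at an adjusted p under 0.05, 4 higher and 5 lower (7 higher and 5 lower after quantile normalization). Among all 18193 genes, 27.3% passed, 11.1% higher and 16.2% lower, and among all probe sets 25.0%. The members' share, 9 of 50, therefore lies under the background. Among members with a mean of at least 4, 8 of 35 passed (22.9%), compared with 33.8% of genes at that level. The median log2 difference of the 50 members was 0.11, with 0.02 over all genes. The groups did not overlap in 26 members (52.0%), compared with 49.1% of all genes. Only Lrp5 changed over 2-fold, as did 1.68% of all genes and 1.73% of all probe sets. By unadjusted p, 23 members (46.0%) were under 0.05, near the 42.1% of all genes. Lrp5, Lrp6 and Sfrp2 alone stayed past the threshold without LC-RD replicate 1 or without LC-RD replicate 2, when 3 members passed in place of 9. With RNA quality in the model, measured on control genes by how far 3' probe sets exceed 5' ones, 4 members passed, of which 3 were among the 9. The groups did not overlap in that measure, so diet and RNA quality cannot be told apart by this fit.

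**Figure D1:**
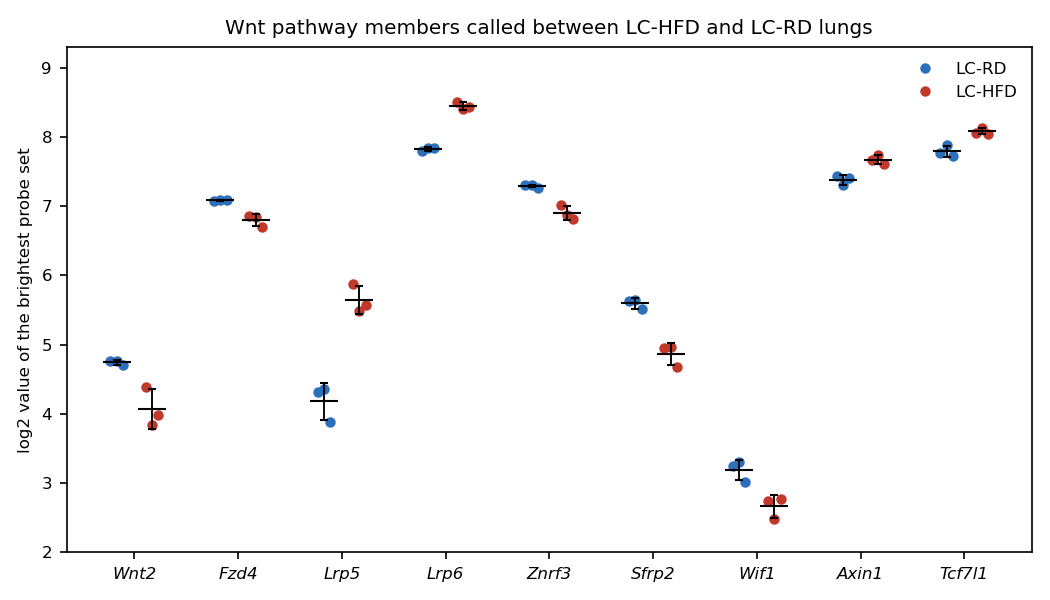
Log2 value on each array of the 9 members that passed limma at an adjusted p under 0.05, where blue points are the 3 arrays of LC-RD, red points those of LC-HFD, and black bars the mean ± SD. The groups lie apart in all 9, most widely for Lrp5, which rose from a mean of 4.18 to 5.64.

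Among the co-receptors, Lrp5 showed the largest change of the 50 members in size. LRP5 and LRP6 are related single-pass proteins that stand beside Frizzled and pass the signal on to Axin. Lrp5 read 5.87, 5.48 and 5.58 in the 3 LC-HFD lungs and 4.31, 4.36 and 3.88 in the 3 LC-RD lungs. Every LC-HFD value was thus above every LC-RD value, and the gap between the groups was wider than the spread within either. The log2 difference was 1.46, or 2.75-fold (standard error 0.156, 95% confidence interval 1.09 to 1.83, limma adjusted p = 0.00134). It rests on 1 probe set. The LC-RD values lay near 4, under the array medians of 4.78 to 4.83, so the size of the fold is uncertain.

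Lrp6 read 8.51, 8.40 and 8.43 in LC-HFD and 7.80, 7.84 and 7.84 in LC-RD. The log2 difference was 0.62, or 1.54-fold (standard error 0.0707, 95% confidence interval 0.45 to 0.79, adjusted p = 0.00164). Its other probe set moved the same way, with 6.95, 6.92 and 7.02 in LC-HFD against 6.59, 6.61 and 6.28 in LC-RD, a difference of 0.47 (adjusted p = 0.0181). Lrp6 was the only called member with a second probe set called in the same direction, among 5 called members that have more than 1.

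Of the 19 ligands, 1 fell and 18 did not pass. Wnt2, a ligand made by lung mesenchyme, read 4.39, 3.84 and 3.98 in LC-HFD and 4.77, 4.76 and 4.70 in LC-RD. The LC-RD values lay close together, and all LC-HFD values were under them. The level was low, with LC-HFD values of 3.84 and 3.98 under 4, so the size of the change is uncertain. The log2 difference was −0.68 (1.60-fold, standard error 0.140, adjusted p = 0.0136), on 1 probe set. It did not pass without LC-RD replicate 1 (adjusted p = 0.0534) or 2 (0.0527), with differences of −0.66 and −0.67. The methods' t-test (adjusted p = 0.0690) and RNA quality in the model (−0.49, adjusted p = 0.156) also ended the call.

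Another 7 ligands had groups that did not overlap and did not pass. Wnt11, a ligand best known from the β-catenin-independent branch, had a mean of 5.67 ± 0.218 in LC-HFD and 5.23 ± 0.182 in LC-RD (log2 difference 0.44, adjusted p = 0.0565). Wnt6 read 5.17 ± 0.264 against 4.77 ± 0.118 (0.39, adjusted p = 0.0814). Wnt9a read 5.46 ± 0.300 against 5.88 ± 0.0632 (−0.43, adjusted p = 0.0736). The second probe sets of Wnt6 and Wnt9a gave −0.05 and −0.19. The remaining ligands of these 7 were closer to 0 or had a probe set that passed. Wnt3a differed by −0.14 and Wnt1 by 0.22, the latter at 2.92 and 2.69, near the low end of the array. For Wnt4 the brightest probe set gave 0.18 (adjusted p = 0.104) and the other 0.25, which passed (adjusted p = 0.0436). Wnt5a, a ligand of the β-catenin-independent branch, gave −0.33 on its brightest probe set (5.85 ± 0.148 against 6.18 ± 0.111, adjusted p = 0.0548). Another of its 4 probe sets rose by 0.40 (adjusted p = 0.0249), so the direction for Wnt5a depends on the probe set.

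The groups overlapped in Wnt2b, Wnt3, Wnt5b, Wnt7a, Wnt7b, Wnt8a, Wnt8b, Wnt9b, Wnt10a, Wnt10b and Wnt16. Their log2 differences ran from −0.34 (Wnt10b) to 0.28 (Wnt8a). Wnt7b, a ligand of the lung epithelium, read 6.85 and 6.75, a difference of 0.10 with a 95% confidence interval of −0.13 to 0.33. The mean over all arrays reached 4 in 10 of the 19 ligands and lay lower in the others, none of which passed. Of all 15 members under 4, 1 passed (6.67%), the inhibitor gene Wif1, compared with 10.7% of all genes at that level.

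**Figure D2:**
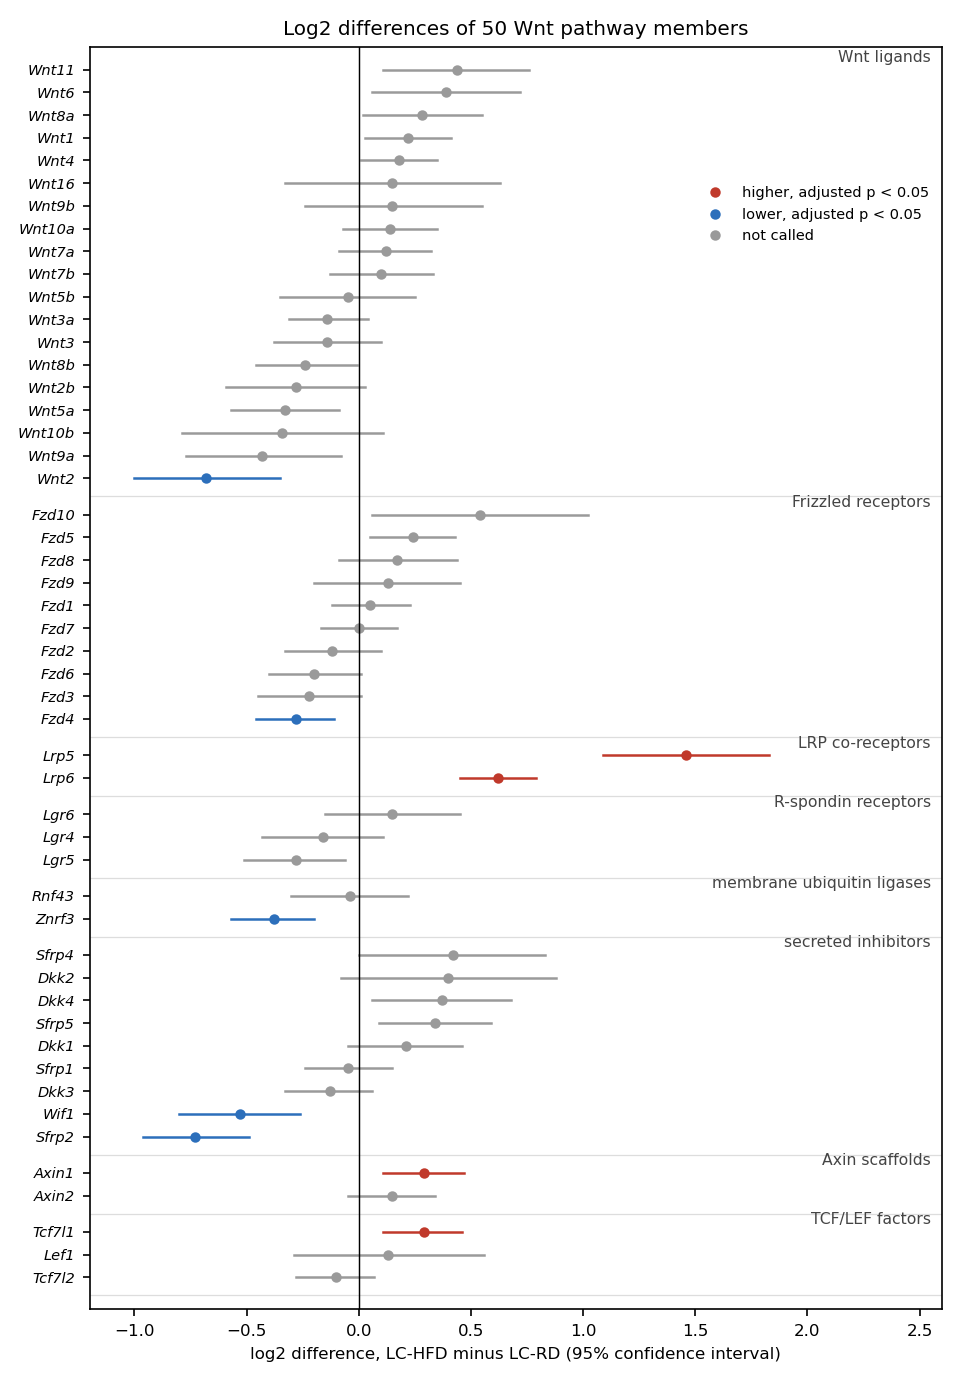
Change of the 50 members on the log2 scale (LC-HFD minus LC-RD, horizontal axis) with its 95% confidence interval, grouped by role; red and blue mark members that passed limma at an adjusted p under 0.05 and gray those that did not. The LRP co-receptors lie farthest to the right, from 0.62 to 1.46, and most other members lie between −0.5 and 0.5.

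Among the 10 Frizzled receptors, 1 fell and 9 did not pass, with a median of 0.03. Fzd4, a receptor of the vascular endothelium that also binds norrin, had means of 6.80 ± 0.0851 in LC-HFD and 7.09 ± 0.00756 in LC-RD (log2 difference −0.28, standard error 0.0751, adjusted p = 0.0319). Its other probe sets gave −0.22 and 0.03 and did not pass. The call was lost without any of LC-RD replicates 1, 2 and 3 or LC-HFD replicates 2 and 3 (adjusted p 0.0505 to 0.108). Quantile normalization (adjusted p = 0.0859) and a replicate block (0.0816) also ended it. So did RNA quality in the model (−0.32, adjusted p = 0.130) and the mean over its probe sets (−0.16, 0.0623). Of 6 markers of blood endothelium, 2 were higher (Pecam1 and Tie1, compared with 11.1% of all genes) and 2 lower (Tek and Cldn5, compared with 16.2%). Their mean ranged from 8.08 to 8.21 in LC-HFD and from 7.97 to 8.04 in LC-RD, and the lowest of them, Tie1, was at 6.56 in LC-RD. The median difference of the 6 was 0.02, and their part in the value of Fzd4 was not tested.

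Fzd3, Fzd5, Fzd6 and Fzd10 had groups that lay apart without passing. Fzd10 had the largest difference of these, 0.54 (5.68 ± 0.439 against 5.14 ± 0.0870, adjusted p = 0.0936), and its values of 5.60, 6.15 and 5.28 varied widely among LC-HFD lungs. Fzd5, a receptor of epithelia, differed by 0.24 (adjusted p = 0.0680) and Fzd6 by −0.20 (adjusted p = 0.136). Fzd3 gave −0.22 on its brightest probe set (adjusted p = 0.143). Of its 6 probe sets 1 fell by 0.51 (adjusted p = 0.0171) and 1 rose by 0.36 (adjusted p = 0.0480), the latter at a level of 3.10 against 2.74. In Fzd1, Fzd2, Fzd7, Fzd8 and Fzd9 the groups overlapped. Fzd7 read 7.95 in both groups (95% confidence interval of the difference −0.17 to 0.17), and Fzd1 differed by 0.05 (−0.12 to 0.23).

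None of the 3 R-spondin receptors passed (1 at an unadjusted p under 0.05). Lgr5, a stem cell marker of the gut and other epithelia, read 3.51, 3.32 and 3.44 in LC-HFD and 3.57, 3.71 and 3.84 in LC-RD. These values did not overlap but were low, and the difference of −0.28 did not pass (adjusted p = 0.0701), with 0.26 on the other probe set. Lgr4 and Lgr6 differed by −0.16 and 0.15 with overlapping groups. Of the ligases that remove Frizzled, Znrf3 fell on its brightest probe set from 7.29 ± 0.0148 to 6.91 ± 0.104 (log2 difference −0.38, standard error 0.0796, adjusted p = 0.0137). Its other probe set rose from 3.29 to 3.71 (0.43, adjusted p = 0.0273). The mean of both probe sets differed by 0.02 (adjusted p = 0.828). Without LC-RD replicate 1 or 2 the brightest alone gave adjusted p = 0.0592 and 0.0584. With RNA quality in the model the brightest gave −0.38 (adjusted p = 0.111). Rnf43 differed by −0.04 with overlapping groups (95% confidence interval −0.30 to 0.22).

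The 9 secreted inhibitors included 2 that fell and 7 that did not pass, with a median of 0.21. Sfrp2, a Frizzled-like decoy secreted by fibroblasts, read 4.95, 4.96 and 4.68 in LC-HFD and 5.63, 5.65 and 5.51 in LC-RD. Every LC-HFD lung was under every LC-RD lung. The log2 difference was −0.73 (1.66-fold, standard error 0.0996, 95% confidence interval −0.96 to −0.49, adjusted p = 0.00308), on 1 probe set. Wif1, which binds Wnt proteins directly, read 2.74, 2.48 and 2.77 in LC-HFD and 3.25, 3.30 and 3.02 in LC-RD. The groups again lay apart (log2 difference −0.53, standard error 0.114, adjusted p = 0.0157), but at a level near the low end of the array, where the size of a change is uncertain. Wif1 did not pass without LC-RD replicate 1 or 2 (adjusted p = 0.0642 and 0.0650), by the methods' t-test (0.0639) or with RNA quality in the model (−0.36, 0.178).

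The other 7 inhibitors did not pass on their brightest probe set, and their differences lay on both sides of 0. Sfrp5 read 5.09 ± 0.174 against 4.75 ± 0.0910 (0.34, adjusted p = 0.0567), and its other probe set gave 0.23. Sfrp4 differed by 0.42 with groups that overlapped, since its LC-HFD values were 5.02, 5.68 and 5.66 (adjusted p = 0.125). The DKK proteins bind LRP5 and LRP6. Dkk2 and Dkk4 differed by 0.40 and 0.37, and Dkk1 by 0.21, all at levels under 4, where the median over all genes was 0.15. Dkk3, a divergent relative, had a brightest probe set at −0.13 and a second at −0.28, which passed (adjusted p = 0.0344). Sfrp1 gave −0.05 on its brightest probe set (6.58 ± 0.0595 against 6.63 ± 0.101), and 1 of its 5 probe sets fell by 0.53 (adjusted p = 0.0307).

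Markers of fibroblasts and of mesothelium, the cell layer that covers the lung, were lower in the same lungs as Wnt2 and Sfrp2. Among all genes 16.2% were lower and 11.1% higher, and of those with a mean of at least 4, 33.8% were called. Of 8 fibroblast markers 6 were lower and 1 was higher. Their mean ranged from 7.40 to 7.52 in LC-HFD and from 7.77 to 7.84 in LC-RD. Pdgfra and Col14a1 fell by 0.49 and 0.92, while Col1a1, a collagen gene, rose by 0.48. Of 5 mesothelial markers 4 were lower, and their mean ranged from 5.51 to 5.81 in LC-HFD and from 6.08 to 6.17 in LC-RD. The lowest of the fibroblast markers was Lum at 4.44 in LC-HFD, under the array medians of 4.78 to 4.83. Other lists also lay apart in these lungs. Of 6 cardiac muscle markers 4 were lower, with a mean of 4.30 to 4.32 in LC-HFD against 4.73 to 4.95. The lymphatic list was lower (6.67 to 6.80 against 7.10 to 7.19) with 1 of 4 called, Lyve1 by −1.54. Ciliated markers had 2 of 5 lower (7.42 to 7.46 against 7.56 to 7.68). Higher lists were those of macrophages and adipocytes. Macrophage markers had 2 of 6 higher (9.31 to 9.37 against 9.19 to 9.22), with a median difference of 0.05, 3 positive and 3 negative. Adipocyte markers had 1 of 3 higher (3.80 to 3.90 against 3.37 to 3.67). Their mean lay under 4, where the median over all genes was 0.15. Smooth muscle and alveolar type II lists were higher by 0.12 and 0.05, with 1 marker called in each. The part of any of these in the values of Wnt2, Sfrp2 and Wif1 was not tested. In RNA from whole lung, fewer cells of a type and less RNA per cell cannot be told apart.

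Inside the cell, Axin1, the scaffold of the complex that destroys β-catenin, was higher. Its mean was 7.67 ± 0.0646 under the high-fat and 7.38 ± 0.0718 under the regular diet (log2 difference 0.29, standard error 0.0775, adjusted p = 0.0342), with 0.21 on its other probe set, which did not pass. The call was lost without LC-HFD replicate 1 or 2 and without any of the 3 LC-RD replicates (adjusted p 0.0582 to 0.130). A replicate block (adjusted p = 0.0921) and RNA quality in the model (0.19, adjusted p = 0.299) also ended it. Axin2, which the pathway itself induces in many tissues, read 6.52, 6.32 and 6.35 in LC-HFD and 6.26, 6.29 and 6.20 in LC-RD. The groups lay apart by a small margin, and the difference of 0.15 did not pass (95% confidence interval −0.05 to 0.34, adjusted p = 0.229).

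Of the nuclear factors, Tcf7l1, which acts mostly as a repressor, rose from 7.79 ± 0.0733 to 8.08 ± 0.0464 (log2 difference 0.29, standard error 0.0754, adjusted p = 0.0318). Its other probe set gave 0.12. The call was lost without LC-HFD replicate 2 or 3 and without any of the 3 LC-RD replicates (adjusted p 0.0563 to 0.116). A replicate block (adjusted p = 0.0718) and RNA quality in the model (0.26, adjusted p = 0.206) also ended it. Lef1 did not pass, at 4.74, 5.42 and 5.29 in LC-HFD and 4.90, 4.98 and 5.17 in LC-RD (0.13, adjusted p = 0.609). Lef1 is also a gene of T cells. Of 11 measured T cell markers 1 was lower and 0 were higher (9.09% called, compared with 27.3% of all genes). The mean of these markers ranged from 4.64 to 4.83 in LC-HFD and from 4.74 to 4.80 in LC-RD.

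Tcf7l2, which encodes the TCF factor of many epithelia, had probe sets that moved differently. The brightest read 7.87, 7.85 and 7.74 in LC-HFD and 7.92, 7.91 and 7.94 in LC-RD, a difference of −0.10 that did not pass (adjusted p = 0.320). Another read 6.20, 6.03 and 6.10 in LC-HFD and 5.23, 5.26 and 5.08 in LC-RD. That probe set rose by 0.92 (standard error 0.0854, adjusted p = 0.000821), the lowest adjusted p among the 98 probe sets of the members. Its remaining probe sets gave 0.10 and −0.37 without passing. The gene makes several transcripts, and which of them each probe set reads was not analyzed here.

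RefSeq (GRCm38.p6) lists 2 start sites of Tcf7l2, one within the gene, and the 250 bases before each are shown because transcripts from different starts can differ in the exons that probe sets read. Both windows lie on the plus strand. The first is chr19:55741560-55741809 and the second chr19:55895071-55895320. Letters are in lower case, with matches to the TCF/LEF motifs CTTTGAT and CTTTGTT on either strand in capitals.
Tcf7l2 first start: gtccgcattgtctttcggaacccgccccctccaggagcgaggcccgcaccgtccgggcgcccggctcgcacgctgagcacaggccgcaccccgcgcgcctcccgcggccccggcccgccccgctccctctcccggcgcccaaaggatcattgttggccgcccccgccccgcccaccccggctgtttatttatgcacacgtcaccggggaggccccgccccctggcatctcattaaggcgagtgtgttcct
Tcf7l2 inner start: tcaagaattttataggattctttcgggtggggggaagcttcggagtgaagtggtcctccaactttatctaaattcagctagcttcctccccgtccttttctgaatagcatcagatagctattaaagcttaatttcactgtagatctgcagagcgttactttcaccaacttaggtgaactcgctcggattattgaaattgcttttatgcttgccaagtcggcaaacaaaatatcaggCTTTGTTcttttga
The first window has 72.8% G and C and 30 CpG pairs, against a median of 52.4% and 6 pairs over all 32851 windows of that length. It holds no match to either motif. The inner window has 40.8% G and C and 7 CpG pairs, with 1 match to CTTTGTT that begins 14 bases before the start. Windows were at hand for 33 of the 50 members, 41 windows in all, and 5 of them (12.2%) held a match, compared with 8.06% of all windows. The matched members were Dkk1, Fzd7, Tcf7l2, Wnt5b and Wnt11, none of which was called on its brightest probe set. For the called members Axin1, Lrp5, Lrp6 and Znrf3 no window was at hand, so a match could not be sought. A match is a string of letters and was not tested as a binding site.

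**Figure D3:**
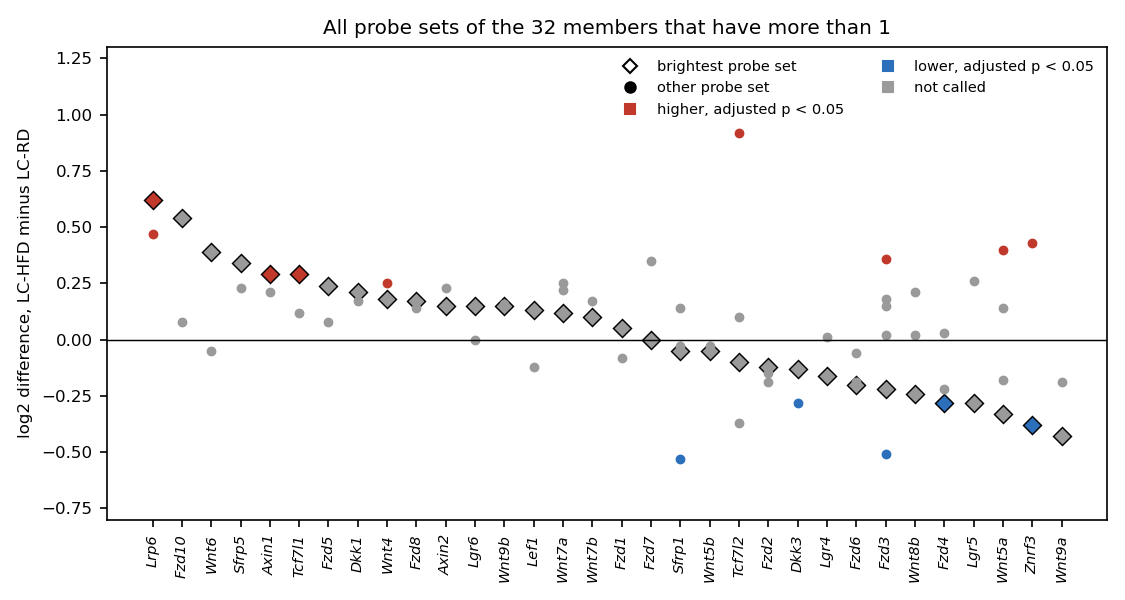
Change on the log2 scale (LC-HFD minus LC-RD, vertical axis) of every probe set of the 32 members that have more than 1; diamonds are the brightest probe set of a gene, circles the others, and red and blue mark an adjusted p under 0.05. Fzd3 and Znrf3 have probe sets called in opposite directions, and a dimmer probe set of Tcf7l2 stands apart at 0.92.

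The choice of probe set mattered for many members. Of the 32 with more than 1, 14 had probe sets on both sides of 0 and 18 on one side. In Fzd3 and Znrf3 probe sets were called in opposite directions. A call on any probe set was found in 15 members, of which 6 (Dkk3, Fzd3, Sfrp1, Tcf7l2, Wnt4 and Wnt5a) had none on the brightest. Counting each of the 98 probe sets, 18 passed (10 higher, 8 lower), a share of 18.4% compared with 25.0% of all probe sets.

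Outside the 50 members, 80 genes of the same pathway were listed by role and 79 had a probe set of their own. Among them 18 rose, 7 fell and 54 did not pass, so that 31.6% were called against 27.3% of all genes. Of the 79, 67 had a mean of at least 4, a level at which 33.8% of all genes were called. The median of the list was 0.02, the same as over all genes. The largest increase was that of Tle5, a small relative of the Groucho corepressors, with means of 10.60 ± 0.0544 for LC-HFD against 8.96 ± 0.0439 for LC-RD (log2 difference 1.64, adjusted p = 6.98e-05). Btrc, part of the ubiquitin ligase that marks β-catenin for destruction, rose by 0.95 (adjusted p = 0.00351; −0.40 to 0.95 over its 5 probe sets). Daam2, which links Dishevelled to actin, rose by 0.94 (adjusted p = 0.000414; 0.08 on its other probe set). The largest decreases were those of Rspo1, Tle4 and Ror1. Rspo1, an R-spondin that strengthens Wnt signals, fell from 5.70 ± 0.240 to 4.95 ± 0.389 (−0.75, adjusted p = 0.0373). Tle4, a Groucho corepressor, fell by 0.67 (adjusted p = 0.00605; up to 0.27 on its other probe sets). Ror1, a Wnt5a receptor, fell by 0.66 (adjusted p = 0.00187; up to 0.16).

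By role, nuclear partners had 7 higher and 1 lower of 13 (median 0.35). Cytoplasmic transducers and the destruction complex had 5 higher and 0 lower of 24 (median −0.00). The called shares were 61.5% and 20.8%, compared with 27.3% of all genes and 33.8% of those with a mean of at least 4. Of the 7 higher nuclear partners only Bcl9 had a probe set under 0 (−0.79 to 0.35). Of the 5 higher transducers, Btrc and Csnk1d (−0.10 to 0.32) had one. Among the transducers, Ctnnb1, which encodes β-catenin, read 12.30 ± 0.0184 against 12.48 ± 0.0215 (−0.18, adjusted p = 0.0942; −0.39 to −0.18 over its 3 probe sets). Gsk3a, a kinase of the destruction complex, rose by 0.60 (adjusted p = 0.00243). Agonists and secretion genes had 1 higher and 1 lower of 7. The higher was Porcn, which attaches the lipid to Wnt proteins (0.64, adjusted p = 0.00173). Planar polarity genes had 3 higher and 1 lower of 9. Other receptors and co-receptors had 1 higher and 2 lower of 8, and other extracellular inhibitors 1 and 1 of 8. From agonists to these inhibitors, the called shares were 28.6%, 44.4%, 37.5% and 25.0%, each of 7 to 9 genes. Of 13 genes known as targets of Wnt and β-catenin, 0 were higher, 2 were lower (Myc by −0.53, Apcdd1 by −0.29, with −0.38 to 0.47 over its 6 probe sets) and 11 did not pass, with a median of −0.05. The called share of these targets was 15.4%, compared with 27.3% of all genes. By unadjusted p, 5 of the 13 (38.5%) were under 0.05, compared with 42.1% of all genes.

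**Figure D4:**
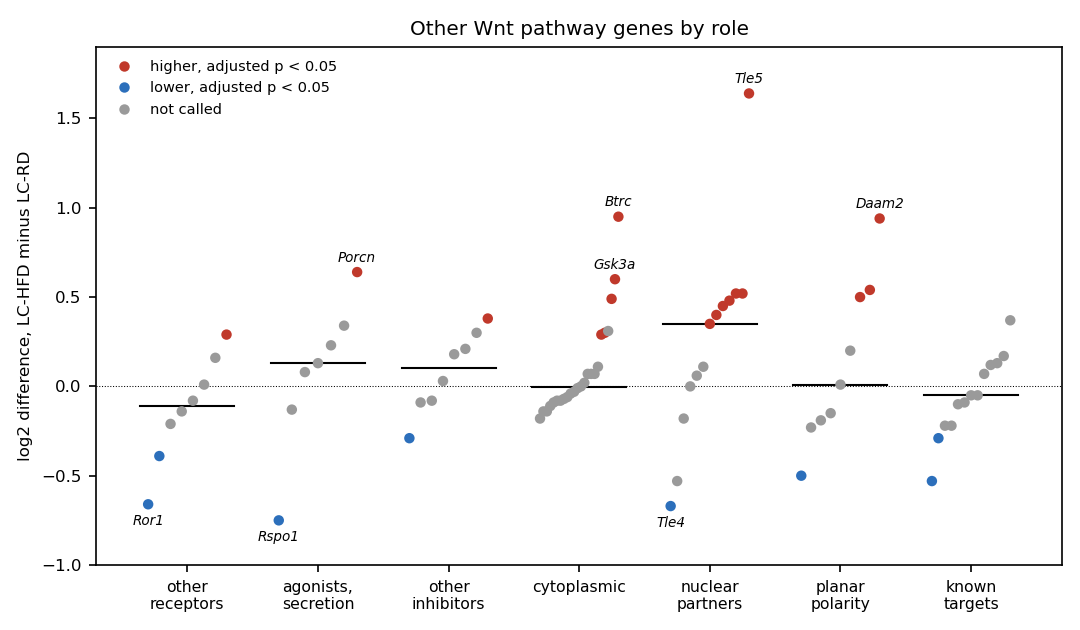
Change on the log2 scale (LC-HFD minus LC-RD, vertical axis) of the other Wnt pathway genes by role, 1 point per gene on its brightest probe set, with the median of each group as a black line; Nkd1, Notum and Apcdd1 stand in 2 groups each. Nuclear partners have the highest median, 0.35, and known targets lie around −0.05.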

How the data were processed

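Total RNA of each lung was reverse transcribed, labeled with biotin and hybridized to 1 Affymetrix mouse genome array per mouse. The authors deposited 1 table of log2 values for 45101 probe sets. GCRMA is listed in the submitters' processing notes. It models background by probe sequence and by default equalizes arrays by quantile normalization. The paper's methods mention Partek software. No version of either is given in the sources used here. No column was left unused (0), and the number of arrays limits the precision.

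No further normalization was applied. Setting aside 64 control probe sets left 45037, which were tested with limma 3.58.1 in R 4.3.3 (default settings, two-sided, LC-HFD minus LC-RD), with Benjamini-Hochberg adjustment over all of them. Probe sets of exactly 1 gene were named through the platform annotation. Of 51 RefSeq genes whose symbols fit the rule, 50 had such a probe set, and the other was not analyzed here. Named were all members, with array values for called members that changed by at least 0.5, and the 3 largest increases and decreases among the called other pathway genes; Porcn, Gsk3a, Ctnnb1, Myc, Apcdd1 and the arrays of Lef1, Axin2, Lgr5 and Tcf7l2 were added after their values were seen. Members, lists and tests were chosen with earlier results of these data known.

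Alternatives changed the test (the methods' t-test, robust variance with an intensity trend, weights per array, a block for replicate number, RNA quality as covariate, a 2-fold threshold), the values (median centering, quantile normalization, a minimum mean of 4, all probe sets of a gene averaged) or the arrays (each left out in turn). In simulated data of 45037 probe sets with 3 against 3 arrays, 90 of 100 shifts of 1.5 and 50 of 100 of 0.75 were recovered, with 3 false calls. No other probe set was shifted there, while 25.0% of the real ones passed, and no group-wide array effect was simulated. These counts therefore do not give the rate of recovery or of false calls on the real arrays. Figures used Python 3.11.15 and matplotlib 3.10.9.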

Additional observations from a re-analysis of the deposited data

How the results depend on the processing

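Apart from the 2-fold threshold, 15 alternatives were run. Lrp5 (1.31 to 1.59), Lrp6 (0.55 to 0.67) and Sfrp2 (−0.83 to −0.64) passed in all 15, with adjusted p of at most 0.0254. Lrp6 and Sfrp2 did not pass the 2-fold threshold. Lrp5 and Sfrp2 have 1 probe set each, so averaging probe sets left their values unchanged. Axin1 passed in 8 of 15, Fzd4 in 6, Tcf7l1 in 8, Wnt2 and Znrf3 in 11, and Wif1 in 10 of 14. The only change of direction was in Znrf3 with the mean over its probe sets, 0.02. The 9 called members (4 higher, 5 lower) became 13 with all probe sets of a gene averaged (9 higher, 4 lower). They became 15 with an intensity trend and robust variance and 14 with a minimum mean of 4. With RNA quality (the 3' minus 5' signal) in the model 4 passed, with a 2-fold threshold 1, and with an array left out 3 to 11. The other pathway genes (25) became 8 with that covariate, 1 with the 2-fold threshold and 17 to 24 with an array left out, and all probe sets (11250) became 3558, 781 and 5792 to 11531. That signal ranged from 1.58 to 1.70 in LC-HFD and from 1.70 to 1.76 in LC-RD, without overlap before rounding. Diet and RNA quality therefore cannot be told apart by that fit, and the cause of the lower counts was not tested. Groups share replicate numbers, but same-numbered arrays did not deviate together (correlations −0.0930 to −0.0303, and 0 of 6 arrays correlated best with their own number). With a replicate block 6 members, 22 other pathway genes and 7906 probe sets passed.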
